A study of Mus musculus with 2 samples.

Results

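Ccl2, Cx3cl1, Csf1 and Il34 encode 4 secreted or membrane-bound ligands, and Ccr2, Cx3cr1 and Csf1r encode the 3 receptors they act on. These 7 of the 31053 genes in the deposited matrices were chosen by name, as the pathways that draw monocytes out of the blood and keep them alive in tissue. Their molecules were counted in each cell class of 2 mouse kidney libraries, to see which nephron segment held the RNA of each ligand and which myeloid cell held the RNA of its receptor.

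CCL2 is a chemokine that brings monocytes out of bone marrow and blood through their receptor CCR2. CX3CL1 (fractalkine) is made as a membrane protein that can be cut free, and through CX3CR1 it holds and sustains monocytes and resident macrophages. CSF1 and IL-34 are separate ligands of the same tyrosine kinase receptor, CSF1R, on which most tissue macrophages depend for survival and division.

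The first library holds kidney cells at 5 weeks of age that the labels call Kif3aΔTub, with the genotype KO and the description "Disease". The second holds kidney cells at 5 weeks labelled WT, with the description "Control". The labels do not say how many mice went into a library. Kif3a encodes a subunit of the kinesin-2 motor that builds primary cilia, and the labels name neither the promoter that drives the deletion nor the deleted exons. Kidneys, 1 per mouse, were dissociated in the cold with a bacterial protease, freed of red cells and dead cells, and run through a droplet kit that tags the 3′ ends of RNA with unique molecular identifiers (UMIs), so that each captured molecule is counted once.

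With 1 library per genotype there is no replicate and no test of genotype. All intervals below are 95% intervals that cover counting error only, and a gene was called higher or lower in a class when it had at least 20 UMIs over both libraries, differed by at least 2-fold, and its interval excluded equal levels. Levels are in CPM, the UMIs of a gene per 1000000 UMIs of the class, a unit that was used to compare a gene with itself between classes and libraries.

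After filtering, 7066 knockout cells with 79060495 UMIs and 4317 wild-type cells with 42468386 UMIs remained, at a median of 7799 UMIs per knockout cell and 7771 per wild-type cell. The median mitochondrial share was 7.54% in knockout cells and 26.8% in wild-type cells, and the limit of 50% removed 8.88% of knockout and 37.0% of wild-type barcodes. Among kept cells the libraries shared 17 barcodes. Over all cells Kif3a stood at 12.2 CPM in knockout cells and 10.3 CPM in wild-type cells, and 3′ tags do not check a deletion whose position is not stated. Cells were grouped into 39 clusters without using the 7 genes, and clusters were named from marker genes. The defining markers were present in their classes, as Lrp2 in proximal tubule-like cells (555 CPM in knockout, 996 CPM in wild type), Umod in thick ascending limb-like cells (6354 CPM in knockout, 14995 CPM in wild type), Aqp2 in principal-like cells (3741 CPM in knockout, 8730 CPM in wild type) and C1qa in macrophage-like cells (6005 CPM in knockout, 7369 CPM in wild type). By class, Kif3a was 10.4 CPM (9.37 to 11.6) in knockout and 23.5 CPM (15.6 to 34.0) in wild-type principal-like cells. It ran the other way in proximal tubule-like cells, at 15.7 CPM (13.5 to 18.1) in knockout and 8.53 CPM (7.52 to 9.64) in wild type. The Kif3a intervals of the libraries overlapped in intercalated-like, thick ascending limb-like and distal convoluted tubule-like cells. The classes were filled unequally. Principal-like cells numbered 2496 in knockout and 169 in wild type, proximal tubule-like cells 1017 in knockout and 2493 in wild type, thick ascending limb-like cells 614 in knockout and 341 in wild type, and macrophage-like cells 684 in knockout and 4 in wild type. Classical monocyte-like cells were 159 in knockout and 5 in wild type, and all 83 neutrophil-like cells came from the knockout. The libraries also filled different clusters within a class. Cluster 2 held 609 of the knockout thick ascending limb-like cells and cluster 31 held 330 of the wild-type ones. In the same way, proximal tubule-like cells were mainly in clusters 6 and 0 in the knockout and in clusters 9, 30, 32 and 11 in the wild type, and principal-like cells in clusters 5 and 4 in the knockout and cluster 29 in the wild type.

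Over all cells, each of the 7 genes was higher in the knockout library. Ccl2 had 2223 UMIs in knockout cells and 6 in wild-type cells. Csf1 had 2456 UMIs in knockout cells and 61 in wild-type cells. Il34 had 3916 UMIs in knockout cells and 142 in wild-type cells. Cx3cl1, with 2049 UMIs in knockout cells and 322 in wild-type cells, had the smallest ratio of the 7, at 25.9 CPM in knockout cells and 7.58 CPM in wild-type cells (log2 ratio 1.77). Among the receptors, Ccr2 had 2149 UMIs in knockout cells and 17 in wild-type cells, Cx3cr1 had 2404 in knockout cells and 13 in wild-type cells, and Csf1r had 3456 in knockout cells and 70 in wild-type cells. All 7 passed the call for higher, as 33.4% of the 15940 genes tested did (9.17% were called lower), and the median gene with at least 100 UMIs was itself 0.60 higher on the log2 scale. The whole-library values combine the level per cell with the make-up of the library, in which macrophage-like cells were 9.68% of knockout cells and 0.0927% of wild-type cells. The classes are therefore taken one at a time.

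In the knockout, the split of each gene's UMIs over classes divided 3 of the ligands from the receptors. There, the named tubule classes held 87.1% of Il34 UMIs, 84.5% of Csf1 UMIs and 76.2% of Cx3cl1 UMIs, while macrophage-like and monocyte-like cells together held less than 1% of each. Macrophage-like and monocyte-like cells held 95.3% of Cx3cr1, 91.3% of Csf1r and 84.8% of Ccr2 UMIs in the knockout. Ccl2 was the ligand that departed from this split, with 66.3% of its UMIs in macrophage-like and monocyte-like cells and 31.8% in the tubule classes. In the wild type the split was 91.5% of Il34 and 81.1% of Cx3cl1 UMIs in the tubule classes but only 24.6% of the 61 Csf1 UMIs, 65.6% of which were in endothelium-like cells. The receptors had few UMIs in the wild type, and macrophage-like and monocyte-like cells held 94.1% of the 17 Ccr2 UMIs, 61.5% of the 13 Cx3cr1 UMIs and 25.7% of the 70 Csf1r UMIs, of which 68.6% were in the tubule classes. The share of a class moves with its number of cells, and the principal-like share of Csf1 in the knockout, 73.3%, ran between 33.1% and 64.0% under other clusterings and filters that drew that class smaller.

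**Figure D1:**
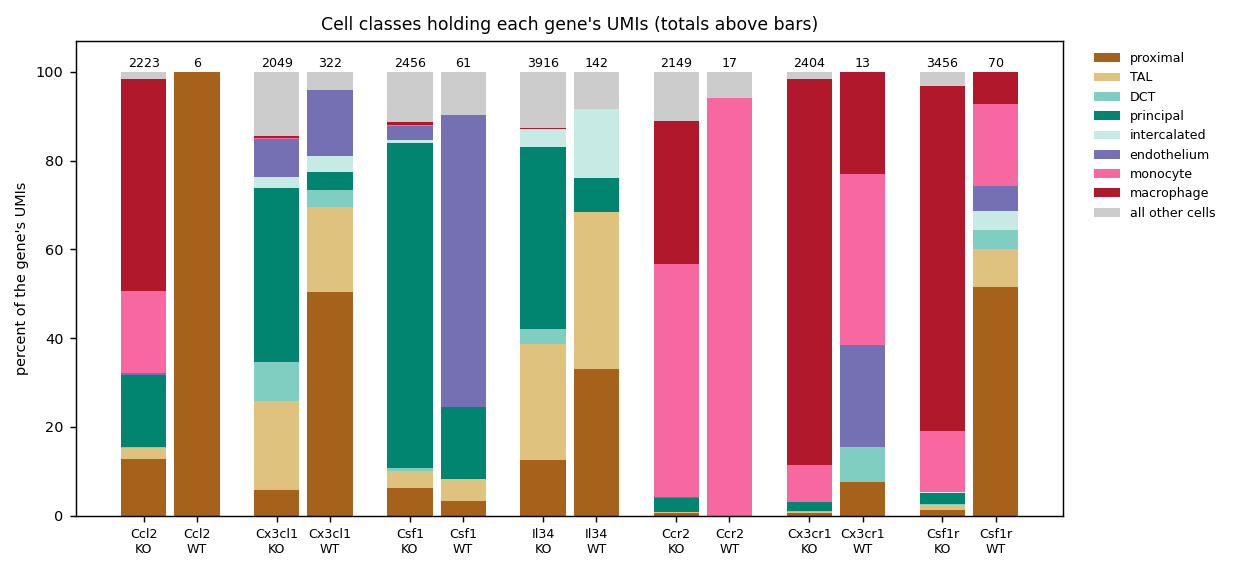
Percent of each gene's UMIs (y axis) in each cell class for the 7 genes (x axis), with the knockout bar left of the wild-type bar and the UMI total above each bar. Principal-like cells (dark green) make up 73.3% of the knockout Csf1 bar, and macrophage-like and monocyte-like cells (red and pink) make up 91.3% of the knockout Csf1r bar.

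Il34, the tubular ligand of CSF1R, was higher in the knockout in all 5 tubule classes. Thick ascending limb-like cells had the highest level of any named class in the knockout, 134 CPM (1025 UMIs, interval 126 to 142) in knockout cells, against 15.5 CPM (50 UMIs) in wild-type cells, a log2 ratio of 3.095 (2.70 to 3.55). Of the 614 knockout thick ascending limb-like cells 387 had an Il34 UMI, and of the 341 wild-type cells 42 did. Proximal tubule-like cells had 41.5 CPM (490 UMIs) in the knockout and 1.57 CPM (47 UMIs) in the wild type, a log2 ratio of 4.71 (4.29 to 5.19). Principal-like cells had 48.7 CPM in the knockout and 9.24 CPM in the wild type, where 11 UMIs were counted, a log2 ratio of 2.33 (1.55 to 3.402). Intercalated-like cells had 36.7 CPM in the knockout and 6.96 CPM in the wild type, a log2 ratio of 2.37 (1.75 to 3.11). Distal convoluted tubule-like cells had 33.9 CPM (134 UMIs) in the knockout and no Il34 UMI in the wild type, which is at least 18.1-fold higher against a floor of 3 counts over the class. In the order of knockout levels, thick ascending limb-like cells stood apart from the other 4 tubule classes, whose levels lay between 33.9 and 48.7 CPM.

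Clusters within a class did not hold Il34 evenly. Nearly all of the distal convoluted tubule-like Il34 lay in knockout cluster 24 (44.6 CPM, 131 UMIs, in 243 knockout cells and 1 wild-type cell). Cluster 25, which both libraries filled and which carried Pvalb and Egf among its leading genes, had 2.96 CPM (3 UMIs) in the knockout and none in the wild type. Of the 154 intercalated-like Il34 UMIs in the knockout, 139 were in cluster 23, which holds no wild-type cell. In cluster 20, with Slc4a1 and Aqp6 among its leading genes and cells of both libraries, Il34 was 20.3 CPM (5 UMIs) in the knockout and 14.2 CPM (22 UMIs) in the wild type, and the intervals overlapped. In the wild-type proximal tubule, 41 of the 47 Il34 UMIs came from clusters 30 (13 UMIs) and 32 (28 UMIs), led by Kap and Ces1f, which together held 1 knockout cell. Outside the nephron, mural-like cells, the contractile cells around vessels, had 61.5 CPM (27 UMIs) in the knockout and none in 47 wild-type cells. Podocyte-like cells had the highest wild-type level, 41.8 CPM (4 UMIs) in the knockout and 75.8 CPM (9 UMIs) in the wild type, with overlapping intervals. Cluster 7, 53 knockout cells led by Tagln, Akap12 and Cpe that met no naming rule, had the highest Il34 level of all knockout clusters, 176 CPM (78 UMIs, interval 139 to 219).

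Csf1, the ligand of CSF1R made by many mesenchymal and endothelial cells, was spread otherwise. In the wild type, endothelium-like cells had 61.7 CPM (40 of the 61 UMIs), and the tubule classes had between 0 and 8.40 CPM. In the knockout, principal-like cells of the connecting tubule and collecting duct had 54.5 CPM (1799 UMIs, interval 52.0 to 57.0), against 8.40 CPM (10 UMIs) in wild-type principal-like cells, a log2 ratio of 2.63 (1.81 to 3.76). A Csf1 UMI was present in 867 of 2496 knockout principal-like cells. The level reached 63.1 CPM in knockout cluster 5, led by Sprr2f, Clca3a2 and Lcn2, and 50.2 CPM in knockout cluster 4, led by Aqp2 and Aqp4. Lcn2, a secreted injury marker, stood at 11244 CPM in cluster 5 and 4876 CPM in cluster 4, and with cluster 4 alone as the knockout cells the Csf1 log2 ratio was 2.51 (1.69 to 3.65). The connecting tubule-like cluster 22, with S100g, Calb1 and Trpv5, had 17.2 CPM in the knockout.

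Proximal tubule-like cells had 12.9 CPM of Csf1 (152 UMIs) in the knockout and 0.0669 CPM (2 UMIs) in the wild type, a log2 ratio of 7.27 whose interval ran from 5.71 to 10.65 because of the 2 wild-type UMIs. Thick ascending limb-like cells had 12.3 CPM (94 UMIs) in the knockout and 0.931 CPM (3 UMIs) in the wild type, a log2 ratio of 3.51 (2.13 to 6.02). Distal convoluted tubule-like cells had 17 Csf1 UMIs and intercalated-like cells 14 in the knockout, with none in the wild type, too few for the call. Endothelium-like cells were the 1 class with enough UMIs in which Csf1 was not called higher, at 45.5 CPM (80 UMIs) in the knockout and 61.7 CPM (40 UMIs) in the wild type, a log2 ratio of -0.45 (-1.003 to 0.15). The 2 endothelial clusters differed. In cluster 15, which carries Plat, Kdr and Ehd3, Csf1 was 86.2 CPM in the knockout and 137 CPM in the wild type (log2 ratio -0.67, -1.27 to -0.04). In cluster 16, which carries Sox17, Igfbp3 and Mgp, it was 17.3 CPM in the knockout and 7.94 CPM in the wild type (3 UMIs), a log2 ratio of 0.94. The highest Csf1 level of any class, 157 CPM in neutrophil-like cells, rested on 14 UMIs in 83 knockout cells.

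Both ligands of CSF1R were therefore higher in knockout tubule. Among the named tubule classes they peaked in different places, Il34 in thick ascending limb-like cells and Csf1 in principal-like cells. This holds for the classes as drawn here. Under some alternative settings, given below, a small injured tubule-like class of the knockout held both, with Il34 at 159 to 180 CPM and Csf1 at 63.8 to 67.8 CPM. Csf1, called higher in 3 tubule classes of the knockout, is shown with its promoter. Cx3cl1, whose promoter was also found, was called higher in more tubule classes. Of the 4 members matched to a promoter, only Csf1 had a match to the kB consensus described next. The 250 bases before its start in the RefSeq annotation (GRCm38.p6, chr3:107760470-107760719, minus strand, written in the direction of transcription) hold 1 match to the kB consensus of NF-kB, which lies on the strand opposite to the gene, 154 to 145 bases before the start, in capitals here.
Csf1: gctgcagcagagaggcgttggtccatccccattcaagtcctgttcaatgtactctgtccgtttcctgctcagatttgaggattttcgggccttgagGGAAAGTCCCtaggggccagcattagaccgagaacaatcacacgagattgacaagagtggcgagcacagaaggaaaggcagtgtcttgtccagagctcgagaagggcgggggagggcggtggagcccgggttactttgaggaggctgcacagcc
A match on either strand to this consensus is found in 8.46% of 32851 RefSeq mouse promoters of 300 bases, so it is a description of these letters and not a bound site. The same stretch holds the GC box letters GGGCGG at 51 and 41 bases before the start, which 35.7% of promoters hold at least once.

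Cx3cl1, the membrane chemokine, had a clear wild-type level and the smallest ratio of the ligands over all cells. Endothelium-like cells had 102 CPM (179 UMIs, interval 87.5 to 118) in the knockout and 74.0 CPM (48 UMIs, interval 54.6 to 98.1) in the wild type, a log2 ratio of 0.45 (-0.01 to 0.95) that did not exclude equal levels. Most of it lay in cluster 15, at 193 CPM in the knockout and 140 CPM in the wild type. Among tubule classes the highest levels were in thick ascending limb-like cells, with 53.3 CPM (408 UMIs) in the knockout and 19.2 CPM (62 UMIs) in the wild type, a log2 ratio of 1.46 (1.08 to 1.88). Distal convoluted tubule-like cells had 45.8 CPM in the knockout and 7.48 CPM in the wild type, a log2 ratio of 2.56 (1.78 to 3.59), and within cluster 25, filled by both libraries, the values were 46.3 CPM in the knockout and 6.86 CPM in the wild type. Principal-like cells had 24.3 CPM in the knockout and 10.9 CPM in the wild type, and intercalated-like cells 11.9 CPM in the knockout and 3.79 CPM in the wild type. Proximal tubule-like cells had 10.2 CPM in the knockout and 5.42 CPM in the wild type, a log2 ratio of 0.91 (0.55 to 1.26) that did not reach 2-fold. Within wild-type proximal tubule the level was 10.7 CPM in cluster 32 and 3.31 CPM in cluster 9, so the clusters of 1 library differed by more than the libraries did.

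The mitochondrial share moved with these ratios. Its median was 7.43% in knockout and 34.1% in wild-type thick ascending limb-like cells, and 13.5% in knockout and 36.4% in wild-type distal convoluted tubule-like cells. With a mitochondrial limit of 25% in place of 50%, the Cx3cl1 log2 ratio was 0.51 (-0.15 to 1.34) in thick ascending limb-like cells, 0.97 (-0.07 to 2.54) in distal convoluted tubule-like cells, 0.52 (-0.50 to 1.82) in intercalated-like cells and 0.69 (-0.04 to 1.67) in principal-like cells, so none of these 4 calls held. That limit also left fewer wild-type cells, which widens the intervals. Thick ascending limb-like cells were then 74 in the wild type (341 at 50%) and distal convoluted tubule-like cells 63 (215). Intercalated-like cells were 147 (285) and principal-like cells 132 (169). The Il34 log2 ratios under the same limit were 2.60 (1.78 to 3.73) in thick ascending limb-like cells and 4.11 (3.61 to 4.71) in proximal tubule-like cells, and both calls held. Mural-like cells had 91.1 CPM of Cx3cl1 (40 UMIs) in 62 knockout cells and 5.15 CPM (1 UMI) in 47 wild-type cells.

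**Figure D2:**
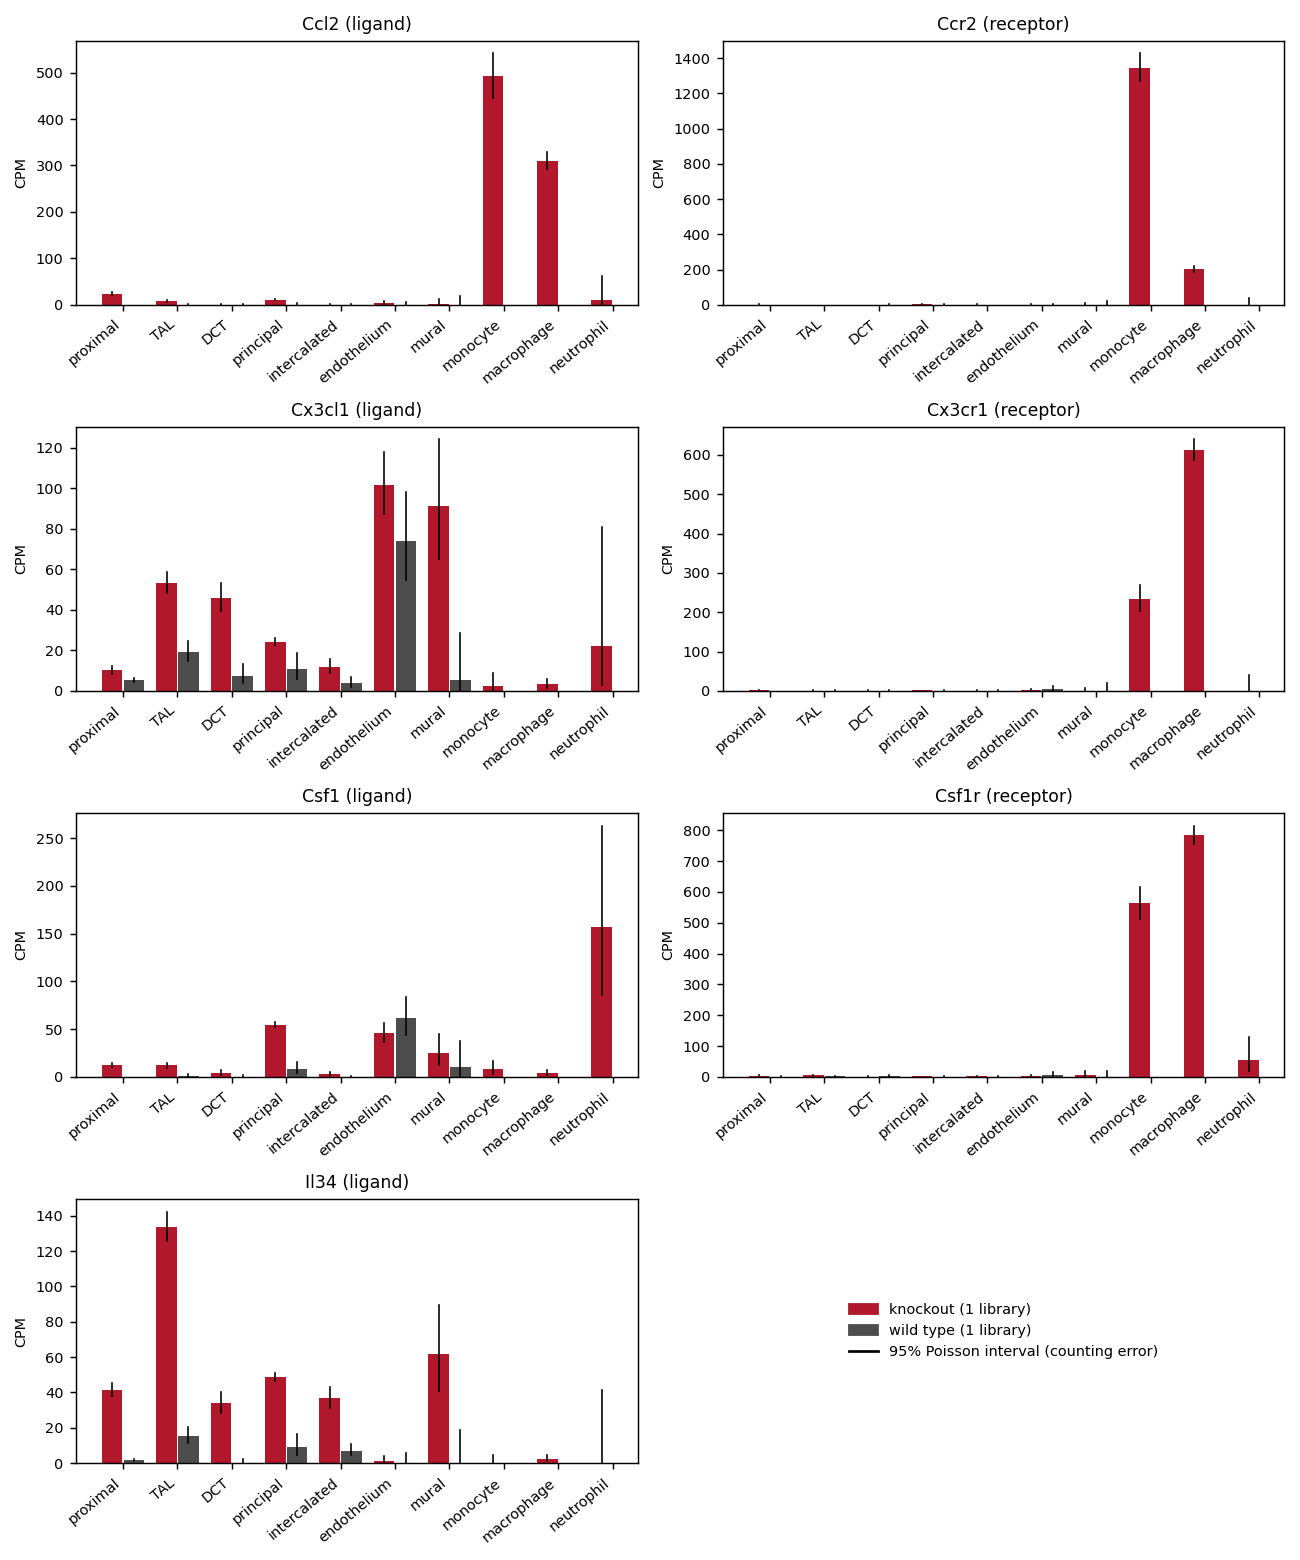
Level of each gene in CPM (y axis, from 0, with its own scale per panel) by cell class (x axis), knockout in red left of wild type in grey, with 95% Poisson intervals. Wild-type monocyte-like cells (5 cells) and macrophage-like cells (4 cells) are not drawn. Il34 peaks in thick ascending limb-like cells at 134 CPM, Csf1 stands at 54.5 CPM in principal-like cells, and the 3 receptor panels have their bars in monocyte-like and macrophage-like cells.

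Relative to the median gene of a class (of genes with at least 100 UMIs there), which was 0.46 higher on the log2 scale in knockout thick ascending limb-like cells, 0.47 in distal convoluted tubule-like cells and 0.30 in proximal tubule-like cells, the ratios were smaller and kept their direction. Il34 was 2.64 above the median gene in thick ascending limb-like cells, 4.41 in proximal tubule-like cells and 2.31 in principal-like cells. Csf1 was 2.60 above it in principal-like cells, and Cx3cl1 was 1.00 above it in thick ascending limb-like cells and 0.61 in proximal tubule-like cells. By class, the genes called higher were 5 of 5 tested members in thick ascending limb-like cells, where 22.6% of all genes tested were. In proximal tubule-like cells 4 of 5 were called higher, against a background of 15.8%, and in principal-like cells 4 of 7, against 7.08%. Both members tested were called higher in distal convoluted tubule-like cells, with a background of 19.5%, and in intercalated-like cells, with a background of 9.04%. Neither of the 2 tested in endothelium-like cells was called, where 3.61% of genes were higher. None of the 7 was called lower in a class, where the background of lower genes was 4.4% in thick ascending limb-like, 3.76% in proximal tubule-like, 5.12% in principal-like, 3.32% in distal convoluted tubule-like, 2.73% in intercalated-like and 2.98% in endothelium-like cells. A member with no wild-type UMI could be tested only by being high in the knockout, so these counts describe the classes and support nothing by themselves.

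**Figure D3:**
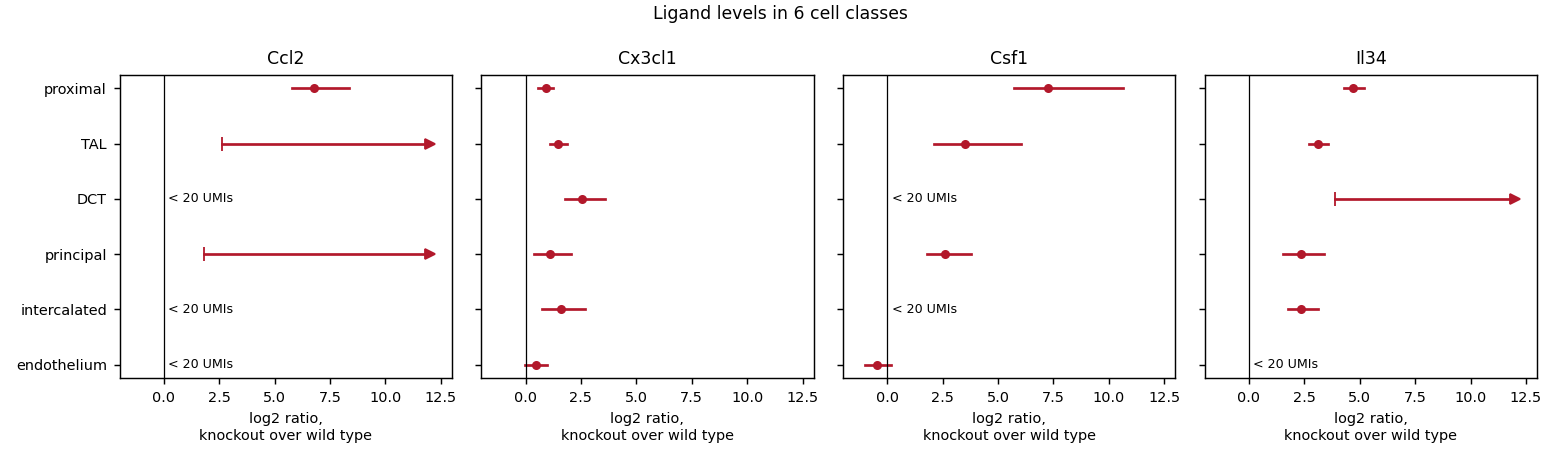
Log2 ratio of knockout over wild type (x axis) for the 4 ligands in 6 classes (rows), with 95% counting intervals. An arrow marks a class with no wild-type UMI, whose interval has a lower end (tick) and no upper end, and classes under 20 UMIs are marked. Il34 lies right of 0 in 5 tubule classes, and Csf1 and Cx3cl1 in endothelium-like cells have intervals that reach 0.

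Ccl2, the chief ligand of CCR2, was absent from all but 1 wild-type cell and was held mainly by myeloid cells in the knockout. Monocyte-like cells had 492 CPM (413 UMIs, interval 446 to 542) and macrophage-like cells 310 CPM (1060 UMIs, interval 292 to 329) in the knockout. The 5 monocyte-like and 4 macrophage-like cells of the wild type had no Ccl2 UMI. The monocyte-like UMIs lay in 37 of 159 knockout cells, 14 of them with no C1q UMI. A single cell held 100 of the 413, and without it the level was 377 CPM (336 to 421). The macrophage-like UMIs lay in 209 of 684 knockout cells, with 75 in the highest. Among tubule cells, proximal tubule-like cells had 24.1 CPM (285 UMIs) in the knockout and 0.201 CPM (6 UMIs) in the wild type, a log2 ratio of 6.80 (5.77 to 8.37). Principal-like cells had 11.02 CPM (364 UMIs) in the knockout and none in the wild type, and thick ascending limb-like cells had 7.31 CPM (56 UMIs) in the knockout and none in the wild type. Distal convoluted tubule-like cells had 1 Ccl2 UMI and intercalated-like cells 0 in the knockout, with 0 in both classes in the wild type.

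Few cells carried the tubular Ccl2. The 364 principal-like UMIs were in 26 of 2496 knockout cells, and 309 of them in 1 cell of 49553 UMIs that also held 2 C1q UMIs. Without that cell the level was 1.67 CPM (1.26 to 2.17), and the ratio to the wild type no longer excluded equal levels. The thick ascending limb-like Ccl2 likewise had 47 of its 56 UMIs in 1 cell, and without it the level was 1.18 CPM and the ratio again did not exclude equal levels. The proximal tubule differed: its 285 UMIs were in 26 of 1017 cells, the cell with the most had 82, and without it the level was 17.2 CPM (14.9 to 19.8) and the log2 ratio 6.31 (5.28 to 7.89). Of these 26 cells 19 held no UMI of C1qa, C1qb or C1qc, the macrophage complement genes, and those 19 held 265 of the 285 Ccl2 UMIs.

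Knockout proximal tubule-like cells with a Ccl2 UMI were deep, with a median of 22137 UMIs, against 8631 in proximal tubule-like cells without one. Summed over the cells, Vcam1, an adhesion molecule of injured tubule, was 478 CPM in cells with Ccl2 and 31.5 CPM in cells without. Nfkbia, an inhibitor and target of NF-kB, was 291 CPM in cells with Ccl2 and 52.9 CPM in cells without, Il34 169 CPM in cells with and 35.6 CPM in cells without, and Csf1 67.4 CPM in cells with and 10.4 CPM in cells without. Havcr1 (KIM-1), another injury marker, ran the other way, at 1.93 CPM in cells with Ccl2 and 20.2 CPM in cells without. C1q genes stood at 177 CPM in cells with Ccl2 and 20.0 CPM in cells without, and 84 of the C1q UMIs in cells with Ccl2 were in 1 cell that held 2 Ccl2 UMIs. Dissociation stress genes stood at 811 CPM in cells with Ccl2 and 293 CPM in cells without, and the part of stress and depth in these differences was not tested. The single wild-type cell with Ccl2, a proximal tubule-like cell with 6 Ccl2 UMIs among 3848 and no C1q UMI, carried 5 Vcam1 UMIs.

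The class to which these cells belonged depended on the clustering. At a finer resolution, with predicted doublets kept, or with at least 1000 UMIs per cell, 69 to 81 knockout cells led by Tagln, Akap12 and Vcam1 formed an injured tubule-like class of their own with 218 to 252 CPM of Ccl2 in 11 to 14 cells. In that class Il34 was 159 to 180 CPM, Csf1 63.8 to 67.8 CPM, Csf1r 28.7 to 31.6 CPM and Cx3cl1 26.4 to 29.0 CPM, while Ccr2 and Cx3cr1 had 0 UMIs. The proximal tubule-like level of Ccl2 was then between 2.30 and 10.7 CPM, and the log2 ratio there was between 3.51 and 5.51.

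**Figure D4:**
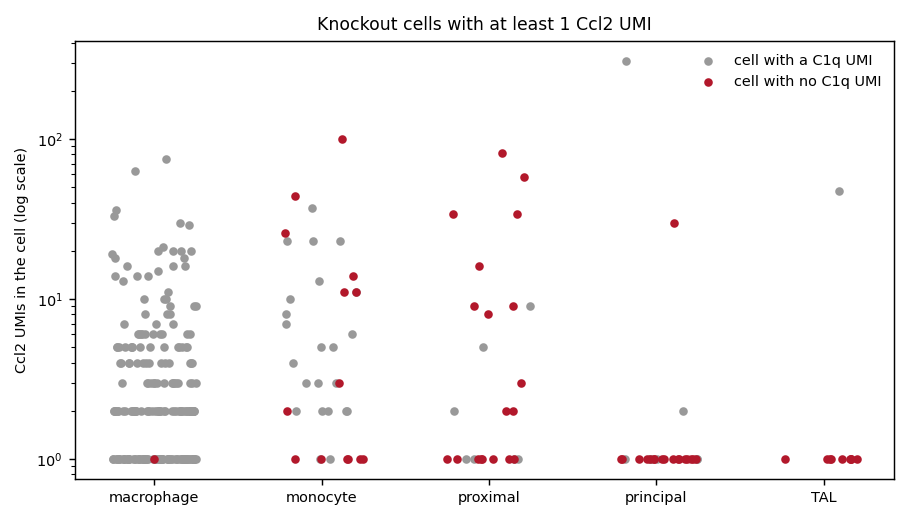
Ccl2 UMIs per cell (y axis, log scale) for knockout cells with at least 1 Ccl2 UMI, by class (x axis), each point 1 cell, red for cells with no C1q UMI and grey for cells with 1 or more. The points at 309 in principal-like and 47 in thick ascending limb-like cells hold most of the UMIs of their class, while 19 of 26 proximal tubule-like cells are red.

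The receptors marked myeloid cells. The monocyte-like class was not free of macrophage genes, as its cluster passed all 7 macrophage markers beside all 7 monocyte markers. Its C1q genes stood at 3190 CPM in the knockout, against 18836 CPM in knockout macrophage-like cells. Its values are therefore those of the class as drawn and not of monocytes alone. Ccr2 was 1347 CPM (1131 UMIs, interval 1269 to 1428) in knockout monocyte-like cells, against 786 CPM (16 UMIs in 5 cells) in wild-type monocyte-like cells. In macrophage-like cells it was 203 CPM (692 UMIs) in the knockout and had no UMI in 4 wild-type cells. Cx3cr1 had the opposite order, with 613 CPM (2094 UMIs, interval 587 to 640) in knockout macrophage-like cells and 235 CPM (197 UMIs, interval 203 to 270) in knockout monocyte-like cells. In the wild type it had 3 UMIs in macrophage-like cells and 5 in monocyte-like cells. In macrophage-like cells Csf1r was 785 CPM (2683 UMIs) in the knockout and 857 CPM (5 UMIs) in the wild type, and in monocyte-like cells it was 563 CPM (473 UMIs) in the knockout and 639 CPM (13 UMIs) in the wild type. Receptor levels per class could not be compared between genotypes at 4 and 5 wild-type cells.

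Within the knockout, Ccr2 was higher in monocyte-like than in macrophage-like cells, and Cx3cr1 the reverse. Macrophage-like cells fell into 4 subsets of at least 98 cells and the shallow subset 8, of 47 cells with a median of 804 UMIs per cell. Subset 3 (161 cells, with Ccl8, Igf1 and MHC class II genes among its leading genes within the immune cells) had 475 CPM of Ccr2. Subset 2 (161 cells, Ch25h, Cxcl10 and MHC class II genes) had 142 CPM, subset 4 (98 cells, the cell cycle genes Pbk, Nusap1 and Ccna2) had 93.7 CPM, and subset 6 (217 cells, Cd163, Folr2 and F13a1) had 46.5 CPM. Some of these leading genes were shared between subsets. Ccl8 also led subset 6, at 575 CPM there and 140 CPM in subset 3, and Ch25h also led subsets 4 and 6. In the shallow subset 8 Ccr2 was 891 CPM, on 45 UMIs. Cx3cr1 was between 501 and 664 CPM in the 4 larger subsets and did not run opposite to Ccr2 among them. Subset 3, with the most Ccr2 of the 4, also had the most Cx3cr1. Csf1r was highest in subset 6, at 1060 CPM, and between 651 and 721 CPM in the other 3. Ccl2 was also highest in subset 6, at 687 CPM (666 UMIs), against 271 CPM in subset 3, 126 CPM in subset 4 and 72.9 CPM in subset 2.

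Counted by cells, 88.1% of monocyte-like cells had a Ccr2 UMI, 49.1% of subset 3, 23.5% of subset 4, 19.3% of subset 2 and 7.83% of subset 6. After each cell was thinned to 1000 UMIs and shallower cells were left out (3 monocyte-like cells and 17 of subset 6), the shares were 65.4% in monocyte-like cells, 28.7% in subset 3, 10.6% in subset 4, 9.27% in subset 2 and 6 of 200 cells in subset 6, in the same order. In proximal tubule-like cells, which should lack the receptor and were deeper (median 8869 UMIs, against 5025 in monocyte-like cells), 0.885% had a Ccr2 UMI before thinning and none after. Both Ccr2 and Cx3cr1 UMIs were found in 42.9% of subset 3 and 42.1% of monocyte-like cells, and in 6.45% of subset 6. Cx3cr1 without Ccr2 was found in 70.0% of subset 6 and 6.29% of monocyte-like cells. Ccl2 and Ccr2 together were found in 21.4% of monocyte-like cells, 21.1% of subset 3 and 5.53% of subset 6. After thinning these shares were 9.62% of monocyte-like cells, 7.01% of subset 3 and 1 of 200 cells in subset 6.

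The unnamed immune cluster i9 (56 knockout cells, led by Retnla, with Ccl17, Siglech and Cd209a among the genes that set it off from other immune cells) had 657 CPM of Ccr2 (225 UMIs) and only 87.5 CPM of Cx3cr1 and 193 CPM of Csf1r. It held 10.5% of the knockout's Ccr2 UMIs. T-like cells had 105 CPM of Ccr2 (9 UMIs) in the knockout and 25.9 CPM (1 UMI) in the wild type. Neutrophil-like cells had 56.0 CPM of Csf1r (5 UMIs) in the knockout.

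**Figure D5:**
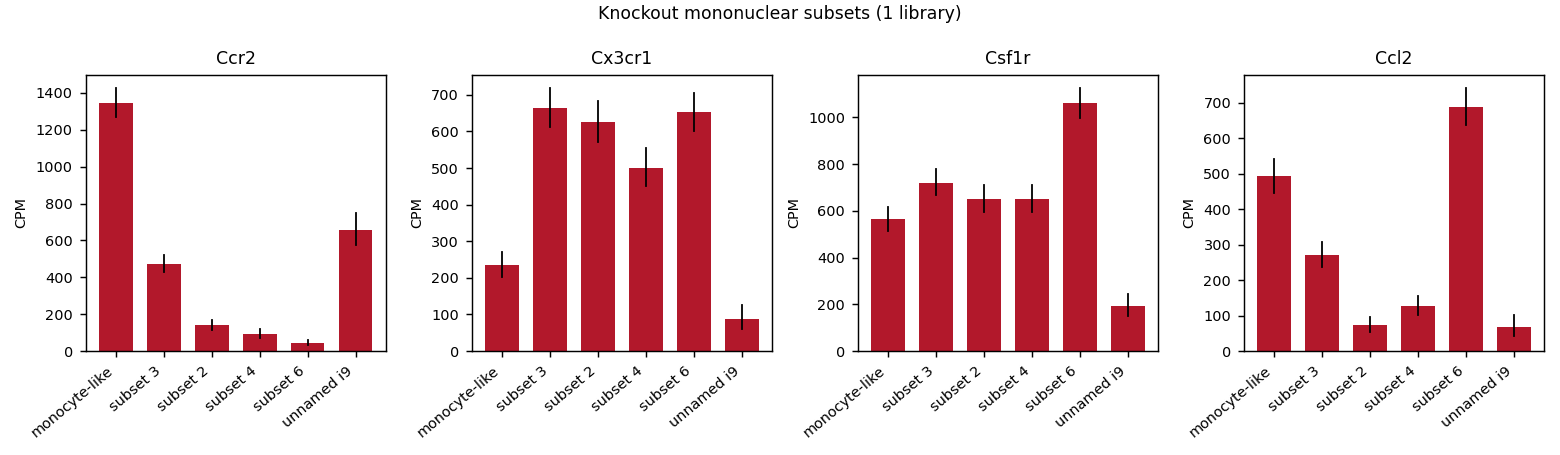
Levels of the 3 receptors and of Ccl2 in CPM (y axis, from 0) in 6 subsets of knockout mononuclear cells (x axis), with 95% Poisson intervals. Ccr2 is highest in monocyte-like cells (1347 CPM) and lowest in macrophage subset 6 (46.5 CPM), where Csf1r (1060 CPM) and Ccl2 (687 CPM) have their highest bars.

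Receptor UMIs outside the myeloid classes were few and were set beside the number that C1q UMIs predict. Such C1q UMIs can come from free macrophage RNA or from barcodes that also hold a macrophage, and these sources were not told apart. If macrophage RNA alone were the source, the C1q UMIs in a class and the ratio of receptor to C1q UMIs in macrophage-like cells give the receptor UMIs to be found there. Cx3cr1 had 47 UMIs in knockout principal-like cells, 1.25 times that number, and 16 in knockout proximal tubule-like cells, 1.55 times that number. Ccr2 had 69 UMIs in knockout principal-like cells, 5.54 times the 12.5 from macrophage C1q. These 69 UMIs lay in 25 of 2496 cells, with 13 in the highest. The ratio does not count RNA of monocytes. In knockout monocyte-like cells Ccr2 was higher, and C1q lower (3190 CPM), than in knockout macrophage-like cells (C1q 18836 CPM). Csf1r had 42 UMIs in knockout thick ascending limb-like cells, 10.7 times the 3.92 from C1q. Cluster 7 had 20 Csf1r UMIs (45.01 CPM) in 26.4% of its 53 knockout cells, 60.0 times the 0.333 from C1q.

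Csf1r was also counted in wild-type proximal tubule-like cells, at 3.72 CPM (44 UMIs) in the knockout and 1.204 CPM (36 UMIs) in the wild type, a log2 ratio of 1.63 (0.96 to 2.31). The wild-type class held 0 C1q UMIs, and 33 of its 36 Csf1r UMIs were in cluster 30 (11 UMIs in 11 cells) and cluster 32 (22 UMIs in 19 cells). These 36 UMIs were 51.4% of all Csf1r UMIs of the wild-type library. Csf1r overlaps Hmgxb3, on the opposite strand, over 873 bases of their whole gene spans. Whether reads were assigned by strand is not stated, and the part of Hmgxb3 reads in the Csf1r count was not tested.

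In the annotation that matches the files' build (GRCm38, GENCODE vM21), the genes lie on 5 chromosomes. Ccl2 (chr11:82035571-82037453, plus strand) lies wholly within Gm17268 on the opposite strand, and Cx3cr1 (chr9:119901616-120069879, minus strand) overlaps Wdr48 and Ttc21a on the opposite strand, so their counts share the limit given for Csf1r (chr18:61100598-61132149, plus strand). Cx3cr1 also overlaps Gorasp1, Csrnp1 and Xirp1 on its own strand. All these overlaps are of whole gene spans, introns included, and whether any exon is shared was not examined. Ccr2 (chr9:124101950-124113557, plus strand), Cx3cl1 (chr8:94772009-94782427, plus strand) and Csf1 (chr3:107741048-107760469, minus strand) overlap no other annotated gene. Il34 (chr8:110741829-110805924, minus strand) overlaps the antisense RNA Gm15894 over 3979 bases.

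Genes around these ligands and receptors were taken from fixed lists. Of the other CC chemokines of monocytes, 7 of 8 were called higher over all knockout cells (background 33.4%). The list median log2 ratio was 6.68, against 0.62 for all genes tested (those with at least 20 UMIs). Ccl12, which binds CCR2 in the mouse, was 589 CPM in knockout macrophage-like cells and, by subset, 1136 CPM in subset 6, 610 CPM in subset 3 and 292 CPM in subset 2. Ccl6 was 3416 CPM in neutrophil-like cells and 1553 CPM in monocyte-like cells of the knockout, Ccl9 372 CPM in knockout monocyte-like cells, and Ccl5 757 CPM in knockout T-like cells and 3706 CPM in wild-type T-like cells. All 4 measured CC receptors and decoys were called higher over all cells (background 33.4%). The counts were 0 of 1 in principal-like (background 7.08%) and 0 of 1 in endothelium-like cells (3.61%). Ccr1 had 930 CPM (83 UMIs) in knockout neutrophil-like cells, and the decoy Ackr2 had 25.6 CPM in knockout and 17.0 CPM in wild-type endothelium-like cells.

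Of the 3 sheddases that cut CX3CL1 off the cell surface, 2 were called higher in thick ascending limb-like cells (background 22.6%) and 1 each in proximal tubule-like (15.8%) and principal-like cells (7.08%), and neither of the 2 measured in endothelium-like cells was called. Adam10 was 79.0 CPM in knockout and 29.5 CPM in wild-type thick ascending limb-like cells (log2 ratio 1.42), and 167 CPM in knockout and 197 CPM in wild-type endothelium-like cells. Ctss, cathepsin S, was 3404 CPM in knockout macrophage-like cells, and Adam17 was 69.1 CPM in knockout monocyte-like cells. For the NF-kB factors and inducers of Ccl2, 8 of 9 measured were called higher in proximal tubule-like cells (median log2 ratio 1.93, all genes 0.33, background 15.8%). In thick ascending limb-like cells 6 of 9 were (1.44, all genes 0.48, background 22.6%). The counts were 5 of 8 in both distal convoluted tubule-like (background 19.5%) and intercalated-like cells (9.04%). They were 2 of 11 in principal-like (7.08%) and 0 of 8 in endothelium-like cells (3.61%). Nfkbia was 63.3 CPM in knockout and 16.6 CPM in wild-type proximal tubule-like cells, a log2 ratio of 1.93, and 681 CPM in knockout and 569 CPM in wild-type endothelium-like cells. Tnfrsf1a, the TNF receptor, was 41.1 CPM in knockout and 10.3 CPM in wild-type proximal tubule-like cells. Nfkb1 was 27.6 CPM in knockout and 7.69 CPM in wild-type proximal tubule-like cells, and Il1b was highest in knockout neutrophil-like cells, at 2621 CPM.

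The list of dissociation stress genes moved alongside. Of its measured genes, 14 of 15 were called higher in thick ascending limb-like cells (background 22.6%) and 11 of 14 in proximal tubule-like cells (15.8%). In principal-like cells 8 of 15 were called higher (7.08%) and 1 lower (5.12%). The counts were 11 of 15 in distal convoluted tubule-like (19.5%) and 9 of 15 in intercalated-like cells (9.04%). In endothelium-like cells 4 of 14 were called higher (3.61%) and 1 lower (2.98%). Summed, it stood at 1321 CPM in knockout and 194 CPM in wild-type thick ascending limb-like cells, 315 CPM in knockout and 76.2 CPM in wild-type proximal tubule-like cells, 912 CPM in knockout and 549 CPM in wild-type principal-like cells, and 4129 CPM in knockout and 4562 CPM in wild-type endothelium-like cells. Within the list, Klf2 reached 2399 CPM in knockout endothelium-like cells and Junb, Btg2 and Ier2 their highest levels in neutrophil-like cells. The classes in which Il34 and Csf1 were called higher are among those in which this list and the mitochondrial share differed between the libraries. The part of the stress genes in the ligand ratios was not tested. For the mitochondrial share, the stricter limit given above kept the Il34 calls in thick ascending limb-like and proximal tubule-like cells. It did not keep the Cx3cl1 calls in tubule classes. That limit also left fewer wild-type cells, so it does not separate the share from the loss of cells.

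Of the other colony-stimulating factors and growth factor receptors, 8 of 9 measured were called higher over all cells (background 33.4%), and 2 of 3 in both thick ascending limb-like (22.6%) and proximal tubule-like cells (15.8%). In principal-like cells 1 of 6 was called higher (background 7.08%) and 1 lower (5.12%), with a median log2 ratio of -0.70. In distal convoluted tubule-like cells 1 of 3 was called higher (background 19.5%, median -0.29). Kitl, the ligand of KIT, was 415 CPM in knockout and 481 CPM in wild-type endothelium-like cells, Kit 283 CPM in knockout and 176 CPM in wild-type intercalated-like cells, and Csf3r 1702 CPM and Csf2rb 336 CPM in knockout neutrophil-like cells. Of the CSF1R signalling and myeloid regulators, all 8 were called higher over all cells (background 33.4%) and 4 of 6 in thick ascending limb-like cells (22.6%). The counts were 3 of 6 in proximal tubule-like (15.8%), 3 of 5 in distal convoluted tubule-like (19.5%) and 2 of 5 in intercalated-like cells (9.04%). They were 2 of 7 in both principal-like (7.08%) and endothelium-like cells (3.61%). Tyrobp (8332 CPM), Cebpb (2666 CPM) and Spi1 (1053 CPM) had their highest level among the knockout classes in neutrophil-like cells.

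Over the 15 knockout classes with at least 50 cells, the gene whose log2(CPM + 1) profile was most like that of Cx3cr1 was Mrc1 (Pearson r = 1.00), among 6987 genes searched. For Ccr2 it was Dpep2 (0.99), for Csf1r Lyz2 (0.93), for Ccl2 Fcgr2b (0.92), for Il34 Cadm4 (0.94) followed by Col4a4 (0.93), for Cx3cl1 Rab6b (0.93) and for Csf1 Add1 (0.88). These are descriptions over classes of 1 library that share depth and free RNA, and with a pseudocount of 10 in place of 1 only 2 or 3 of the 5 most similar genes were shared for each member.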

How the data were processed

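Cell-by-gene matrices of UMI counts, 1 per library, were used as deposited by the authors. Per the submitters' processing notes, Cell Ranger 3.0.2 and Seurat 3.1.1 were used with the mm10 build, whereas the matrix headers name Cell Ranger 3.1.0. Barcodes with at least 500 UMIs, 200 genes and under 50% mitochondrial UMIs were kept. Scrublet (scanpy 1.11.5) marked 170 knockout (2.35%) and 54 wild-type (1.24%) cells as doublets, which were removed. Cells were clustered (Leiden, resolution 1; 2000 variable genes without the 7 members, 30 components, 15 neighbours), and immune clusters were split again. A cluster was named "-like" from at least 3 fixed markers, each with at least 50 CPM, 20 UMIs and 2-fold over the median cluster; the remaining naming steps were written after clusters had been seen. UMIs were summed per class and library. Levels have exact Poisson intervals, shares Clopper-Pearson intervals, and ratios (0.5 UMIs added to each sum) intervals from the exact conditional distribution of 2 counts, all at 95%. Classes with at least 100 cells in each library, 6 in all, were compared. No p-value was computed.

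The 7 members, the gene lists and the clusters' markers were chosen with earlier results of these data known. From each list at most 4 genes were named, those with the highest level in a knockout class. Some genes that this rule names are not reported here. Genes most like a member were those with the highest correlation among genes with at least 50 CPM in a class. The ratio script was checked on simulated counts. Alternatives covered filters, doublets, clustering, scaling (edgeR 4.0.16 in R 4.3.3), thinning to 1000 UMIs and single cells or clusters. Python 3.11.15, numpy 2.4.6, scipy 1.17.1 and pandas 2.3.3 were used. Promoter sequence came from the RefSeq table of GRCm38.p6. Of the 7 members, Csf1r was left out of this search and 4 of the others were matched.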

Additional observations from a re-analysis of the deposited data

Results flagged for a closer look

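Barcodes left out of the comparisons because at least 50% of their UMIs were mitochondrial, but with enough UMIs and genes, numbered 372 in the knockout and 1361 in the wild type. In these barcodes each of the 7 genes had a higher value in the knockout, and for 4 the knockout's counting interval lay wholly above the wild-type one. Ccr2 was 6.77 CPM (13 UMIs) in the knockout and had 0 UMIs in the wild type. Cx3cr1 was 4.68 CPM (9 UMIs) in the knockout and had 0 UMIs in the wild type. Csf1 was 6.25 CPM (12 UMIs) in the knockout and 0.0892 CPM (1 UMI) in the wild type. Il34 was 8.33 CPM (16 UMIs) in the knockout and 0.802 CPM (9 UMIs) in the wild type. The intervals overlapped for Cx3cl1 (6.25 CPM in the knockout and 4.64 CPM in the wild type), Csf1r (3.12 CPM in the knockout and 0.624 CPM in the wild type) and Ccl2 (3 UMIs in the knockout and 0 in the wild type).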

How the results depend on the processing

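With 1 library per genotype, neither replicate error nor the effect of leaving out a replicate could be measured, and no result is a test of genotype. No paired analysis was possible because each genotype has 1 library. Wild-type tubule counts of 0 to 11 UMIs limit most ratios, and 4 macrophage-like and 5 monocyte-like wild-type cells limit the receptors. The 1 called ratio that changed sign was the Ccl2 log2 ratio in principal-like cells, -0.42 after thinning to 1000 UMIs, against 0 wild-type UMIs. With no wild-type UMI this sign depends on the 0.5 UMIs added to each sum and does not show a lower knockout level. In the same cells the thinned ratios of Ccr2 (-1.07), Cx3cr1 (-1.07) and Csf1r (-0.18) were also negative, each against 0 wild-type UMIs and not called before thinning. The called ratios of Il34 in thick ascending limb-like cells (2.60 to 3.11) and proximal tubule-like cells (4.11 to 4.88) and of Csf1 in principal-like cells (2.32 to 3.002) stayed positive under every alternative run. Over those results that answer a comparison, 121 values moved by less than counting error and 37 by more, and the causes were not tested. The moved log2 ratios were as follows. Il34 in thick ascending limb-like cells was 2.69 with TMM, 2.67 with median-of-ratios scaling, 2.65 with totals without mitochondrial genes, 2.60 with a mitochondrial limit of 25% and 2.70 thinned, and Il34 in proximal tubule-like cells was 4.11 with that limit. Cx3cl1 in thick ascending limb-like cells was 1.05 with TMM, 1.03 with median-of-ratios scaling, 1.01 with totals without mitochondrial genes and 0.51 with the 25% limit, and in distal convoluted tubule-like cells 0.97 with that limit and 1.68 thinned. Ccl2 in proximal tubule-like cells was 5.51 at Leiden resolution 2, 3.51 with at least 1000 UMIs per cell, 3.91 with doublets kept, 9.37 with the 25% limit and 4.02 thinned. Csf1 in endothelium-like cells was 0.94 within cluster 16 (an alternative added after seeing the data), against -0.45 over the class. Moved knockout levels in CPM were, at resolution 2, Ccr2 in monocyte-like cells 1257 and Csf1 in principal-like cells 48.9. With at least 1000 UMIs per cell, macrophage-like Ccl2 was 288, Csf1r 730 and Cx3cr1 568, and principal-like Csf1 47.6. With doublets kept these were 272, 684, 542 and 45.7 in that order. Clustered by library, principal-like Csf1 was 45.6. Thinned, macrophage-like Ccl2 was 335, Csf1r 843 and Cx3cr1 683, monocyte-like Ccr2 1474, principal-like Csf1 49.1 and endothelium-like Cx3cl1 131. With a minimum of 100 UMIs per gene, 1 member was called higher in intercalated-like cells (background 5.8%), where 2 were at 20 UMIs. In thick ascending limb-like cells 2 were (19.8%), where 5 had been, and in proximal tubule-like cells 3 (10.9%), where 4 had been. The members that dropped out had fewer than 100 UMIs and were no longer tested, so no member still tested lost its call. They were Cx3cl1 in intercalated-like, Csf1, Ccl2 and Csf1r in thick ascending limb-like and Csf1r in proximal tubule-like cells. At that minimum 1106 of 10176 genes were called higher in proximal tubule-like cells (1951 of 12352 at 20 UMIs). The counts were 1640 of 8280 in thick ascending limb-like (2577 of 11421) and 1039 of 5824 in distal convoluted tubule-like cells (1948 of 10005). They were 406 of 7003 in intercalated-like (952 of 10528) and 99 of 4184 in endothelium-like cells (326 of 9020).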

Other observations

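Of the CC chemokines that share CCR2 with Ccl2, Ccl7 was named after its values were seen. Ccl7 was 785 CPM in macrophage subset 6, 364 CPM in subset 3 and 255 CPM in monocyte-like cells of the knockout, an order that put subset 6 first, as for Ccl2 and Ccl12.

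Cluster 18, 297 knockout and 22 wild-type cells that carried Aqp2 beside Atp6v1g3 and Foxi1 and so met no naming rule, held both ligands of CSF1R. Il34 was 43.1 CPM in the knockout and 1.67 CPM (1 UMI) in the wild type, and Csf1 was 24.0 CPM in the knockout and 5.02 CPM (3 UMIs) in the wild type. Its Cx3cl1 level was 23.9 CPM in the knockout and 10.0 CPM (6 UMIs) in the wild type.

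Ccl2-positive macrophage-like cells of the knockout had 262 CPM of Nfkbia, against 150 CPM in Ccl2-negative ones, a smaller gap than the one in proximal tubule-like cells, and the difference between the gaps was not tested.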
